A study of Mus musculus with 21 samples.

Results

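Interferon-stimulated genes are the genes that cells switch on when interferons bind their receptors. A set of 39 of them, named by symbol, was followed in cultured mouse natural killer (NK) cells that lacked Ikaros, Aiolos or both. The set holds antiviral enzymes, sensors of nucleic acids, antiviral effectors, modifiers of the ISG15 and ubiquitin type, interferon-inducible GTPases and transcription factors. Of the 39 genes, 36 have a row among the 11736 genes of the deposited table. Mx1, Mx2 and Dtx3l were not analysed here.

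Spleen NK cells of mice with NK cell conditional deletions were compared with those of mice that carried Cre recombinase alone. The 4 groups were double knockout (DKO; Ikzf1/Ikzf3 deleted, 3 libraries, S5 to S7), Ikzf1 KO (Ikaros gene, 4 libraries, S12 to S15), Ikzf3 KO (Aiolos gene, 4 libraries, S1 to S4) and Cre only (4 libraries, S16 to S19). All of these cells were cultured with interleukin 15 (IL-15) at 50 ng/ml, so no comparison here shows the effect of the cytokine. The labels do not name the promoter that drives Cre or the age of the mice. They call the samples biological replicates, without naming animals, and the p-values below measure the spread between these libraries.

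In the type I pathway, interferon alpha and beta activate a complex that holds STAT2 and IRF9 and binds the interferon-stimulated response element (ISRE) in promoters. Interferon gamma, which NK cells themselves secrete, acts through gamma-activated sites (GAS) and induces IRF1, which can also bind the ISRE. Ikaros and Aiolos are zinc finger proteins of lymphocytes that bind DNA around a GGGAA core and can repress or activate genes.

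The depth recovered from the values was 8.61 to 21.2 megareads per library over 11291 genes with whole reads. Ikzf1 averaged 30.3 ± 7.12 RPKM in DKO, 19.1 ± 0.662 in Ikzf1 KO, 81.4 ± 6.34 in Ikzf3 KO and 61.9 ± 5.22 in Cre only libraries (SD, n = 3 for DKO and 4 for the others). Ikzf3 averaged 21.5 ± 1.96 RPKM in DKO, 48.3 ± 1.52 in Ikzf1 KO, 17.8 ± 2.37 in Ikzf3 KO and 41.8 ± 3.68 in Cre only libraries. Each targeted transcript was thus lower, though not absent, in the groups labelled as lacking it. RPKM is reads scaled to gene length and to library size. The 7 NK markers measured (such as Ncr1 and Klrb1c) summed to 1660 to 1995 RPKM in DKO, 1467 to 1678 in Ikzf1 KO, 1235 to 1941 in Ikzf3 KO and 1952 to 2061 in Cre only libraries. The 6 T cell markers measured summed to 197 to 458 RPKM in DKO, 24.4 to 67.3 in Ikzf1 KO, 31.1 to 62.2 in Ikzf3 KO and 20.2 to 99.8 in Cre only libraries. Of 5 markers of plasmacytoid dendritic cells, 1 was measured, at no more than 0.263 RPKM in any library. Of 5 B cell markers Cd79b was measured, at 0.516 to 2.23 RPKM in DKO, 0.777 to 1.54 in Ikzf1 KO, 0 to 0.0796 in Ikzf3 KO and 0.156 to 0.522 in Cre only libraries. The 2 macrophage and monocyte markers measured of 6 (Cd14 and Lyz2) summed to 1.47 to 3.47 RPKM in DKO, 1.41 to 1.77 in Ikzf1 KO, 1.52 to 4.65 in Ikzf3 KO and 0.0778 to 0.614 in Cre only libraries, where Lyz2 was listed at 0. The 2 conventional dendritic cell markers measured of 5 summed to 1.04 to 3.37 RPKM in DKO, 1.04 to 1.66 in Ikzf1 KO, 0.812 to 1.85 in Ikzf3 KO and 1.601 to 3.21 in Cre only libraries. Summed macrophage and monocyte markers were lower in every Cre only library than in any knockout library. The part of these markers in the results was not tested. Markers of neutrophils and red cells have no row.

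The letters before the start of some of these genes are shown because many genes of the set hold a short element there, though not all. Each line gives the last 150 bases before the RefSeq start (GRCm38.p6), 5′ to 3′ on the strand of the gene. For Irgm2, Oas1a, Bst2 and Oasl2, the bases just after that start were not found as an unbroken run in a GENCODE transcript of the gene. The Irgm2 window lies inside the gene body given below, so its annotated starts differ. Capitals mark matches to the core of the ISRE (GAAA, then any 2 bases, then GAAA) on either strand, and matches that overlap are joined. Igtp, Irgm2, Gbp2 and Irgm1 encode GTPases, Oas1a and Bst2 encode antiviral proteins, and Oasl2 is shown as the gene of the set with the largest rise in Ikzf1 KO and also in DKO, with no match in its window.
Igtp, chr11:58199406-58199555, plus strand: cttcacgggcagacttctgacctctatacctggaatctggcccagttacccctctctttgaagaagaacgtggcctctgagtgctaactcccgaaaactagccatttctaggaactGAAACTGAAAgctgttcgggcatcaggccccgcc
Irgm2, chr11:58214827-58214976, plus strand: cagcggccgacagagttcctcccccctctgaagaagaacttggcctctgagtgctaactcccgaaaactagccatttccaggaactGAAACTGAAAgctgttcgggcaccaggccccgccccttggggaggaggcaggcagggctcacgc
Gbp2, chr3:142620513-142620662, plus strand: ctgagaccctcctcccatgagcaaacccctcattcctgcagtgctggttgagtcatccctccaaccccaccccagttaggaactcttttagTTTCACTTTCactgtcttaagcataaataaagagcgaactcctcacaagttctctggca
Irgm1, chr11:48871421-48871570, minus strand: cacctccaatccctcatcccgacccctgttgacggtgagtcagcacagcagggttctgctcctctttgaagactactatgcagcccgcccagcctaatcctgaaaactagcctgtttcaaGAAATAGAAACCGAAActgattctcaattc
Oas1a, chr5:120907526-120907675, minus strand: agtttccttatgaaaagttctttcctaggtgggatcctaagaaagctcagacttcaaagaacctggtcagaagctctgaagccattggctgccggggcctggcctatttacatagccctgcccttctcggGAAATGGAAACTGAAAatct
Bst2, chr8:71537473-71537622, minus strand: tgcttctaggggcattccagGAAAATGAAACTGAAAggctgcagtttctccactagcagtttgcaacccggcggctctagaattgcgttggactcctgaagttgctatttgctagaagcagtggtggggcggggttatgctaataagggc
Oasl2, chr5:114896784-114896933, plus strand: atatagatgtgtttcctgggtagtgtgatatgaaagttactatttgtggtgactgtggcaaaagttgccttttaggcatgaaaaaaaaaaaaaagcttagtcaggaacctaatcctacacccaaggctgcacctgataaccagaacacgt

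RefSeq windows from 250 bases before to 50 bases after the start were matched for 29 of the 36 genes (35 windows). The ISRE core was found in 17 of the 29 genes (58.6%), against 3.99% of the 27025 genes with a window of the same length. TTCNNNGAA, the GAS letters, were found in 11 genes (37.9%), against 9.55% of all genes. TGGGAA, a core of the Ikaros family, was found in 12 genes (41.4%), against 28.3% of all genes. All 6 GTPase genes of the set hold the ISRE core, and its first base lies at -34 in Igtp, -64 in Irgm2, -59 in Gbp2, -30 and -24 in Irgm1, -45 and -39 in Gbp3 and -53 in Gbp7. ISRE and GAS letters overlap in Bst2, ISRE and Ikaros letters in Gbp3, and GAS and Ikaros letters in Eif2ak2. A match describes letters only, not binding, and these windows were chosen by gene and not by any signal measured at them.

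**Figure D1:**
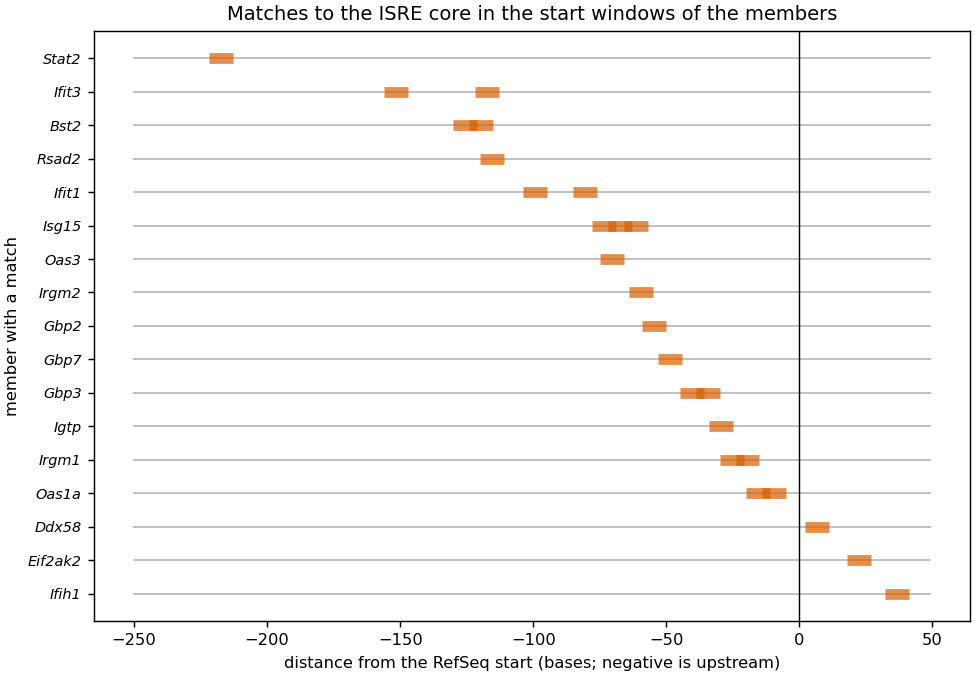
Position of each match to the ISRE core (orange bars, either strand) in bases from the RefSeq start for the 17 genes with a match; grey lines mark the window from 250 bases before to 50 bases after the start. Most matches lie within 150 bases before the start, and those of Ddx58, Eif2ak2 and Ifih1 lie after it.

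Of the 36 genes, 33 passed the filter (1 RPKM or more in 3 or more libraries) that left 10032 genes for testing. Oas2, Ifi44 and Rsad2 did not pass. A gene was called at an adjusted p below 0.05, from a limma fit of log2(RPKM + 0.5) over all 15 libraries with Benjamini-Hochberg adjustment over the 10032 genes. Fold changes are log2 differences on that scale ± SE, the group named before "versus" minus the group named after it, and they understate the change of genes near or below 1 RPKM.

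In Ikzf3 KO cells the set was low. Relative to Cre only, 11 of the 33 genes fell and 0 rose, where 14.2% of all genes tested were called (6.3% higher and 7.88% lower). The median log2 fold change of the 33 was -0.47, against -0.02 for all genes tested. The Ikzf3 KO mean was the lowest of the 4 group means for 24 of the 33 genes (72.7%; 32.1% of all genes tested) and the highest for 0. Libraries of the Ikzf3 KO and Cre only groups did not overlap for 12 of the 33, against 18.2% of all genes tested. In bulk RNA, fewer cells of a type and less RNA per cell cannot be told apart. The count of called genes was 5 without the Cre only library S16. The share of all genes tested that was called in that run is not given here, so this count shows no trait of the set.

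In Ikzf1 KO cells few genes of the set were called. Relative to Cre only, 4 of the 33 rose and 0 fell, where 6.32% of all genes tested were called (3.54% higher and 2.78% lower). These were Oasl2, Oas1a, Ifih1 and Ifit3. Oasl2 and Ifit3 reached 1 RPKM in 0 Cre only libraries, so they entered the test through the knockout groups and could be called only as higher. Of the other 31 genes, 2 rose, near the share of all genes tested. The median log2 fold change was 0.19, against -0.01 for all genes tested. The groups did not overlap for 9 of the 33, near the 24.9% of all genes tested. The count of called genes was 1 without S13, S14 or S18 and 2 without S12 or S19. Shares of all genes tested that were called in these runs are not given here, so these counts show no trait of the set.

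In DKO cells genes of the set were called in both directions. Relative to Cre only, 6 of the 33 rose (Oasl2, Ifih1, Bst2, Ifit3, Gbp2 and Usp18) and 3 fell (Ddx58, Zbp1 and Isg20), where 18.7% of all genes tested were called (8.06% higher and 10.6% lower). Here too Oasl2 and Ifit3 could be called only as higher, and of the other 31 genes 4 rose and 3 fell. The groups did not overlap for 13 of the 33, against 35% of all genes tested. Relative to Ikzf1 KO, Gbp2 alone was called, higher in DKO, where 7.48% of all genes tested were called (3.76% higher and 3.72% lower), and the groups did not overlap for 7 of the 33, against 31.8%. Relative to Ikzf3 KO, 15 of the 33 were higher in DKO and 0 lower, where 20.1% of all genes tested were called (10.2% higher and 9.85% lower). Ifit3, 1 of the 15, reached 1 RPKM in 0 Ikzf3 KO libraries, so here too it could be called only as higher. The median log2 difference of that comparison was 0.69, against -0.00 for all genes tested, and the groups did not overlap for 20 of the 33, against 24.2%. Relative to Cre only the count of called genes in DKO was 5 without S6, and relative to Ikzf1 KO it was 0 without S6, S7 or S12 and 2 without S4, S5 or S13. For these runs too the share of all genes tested that was called is not given here, so the counts show no trait of the set.

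The 3 comparisons with Cre only share the Cre only libraries, and the comparisons with DKO share the DKO libraries, so their calls are not independent of one another.

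**Figure D2:**
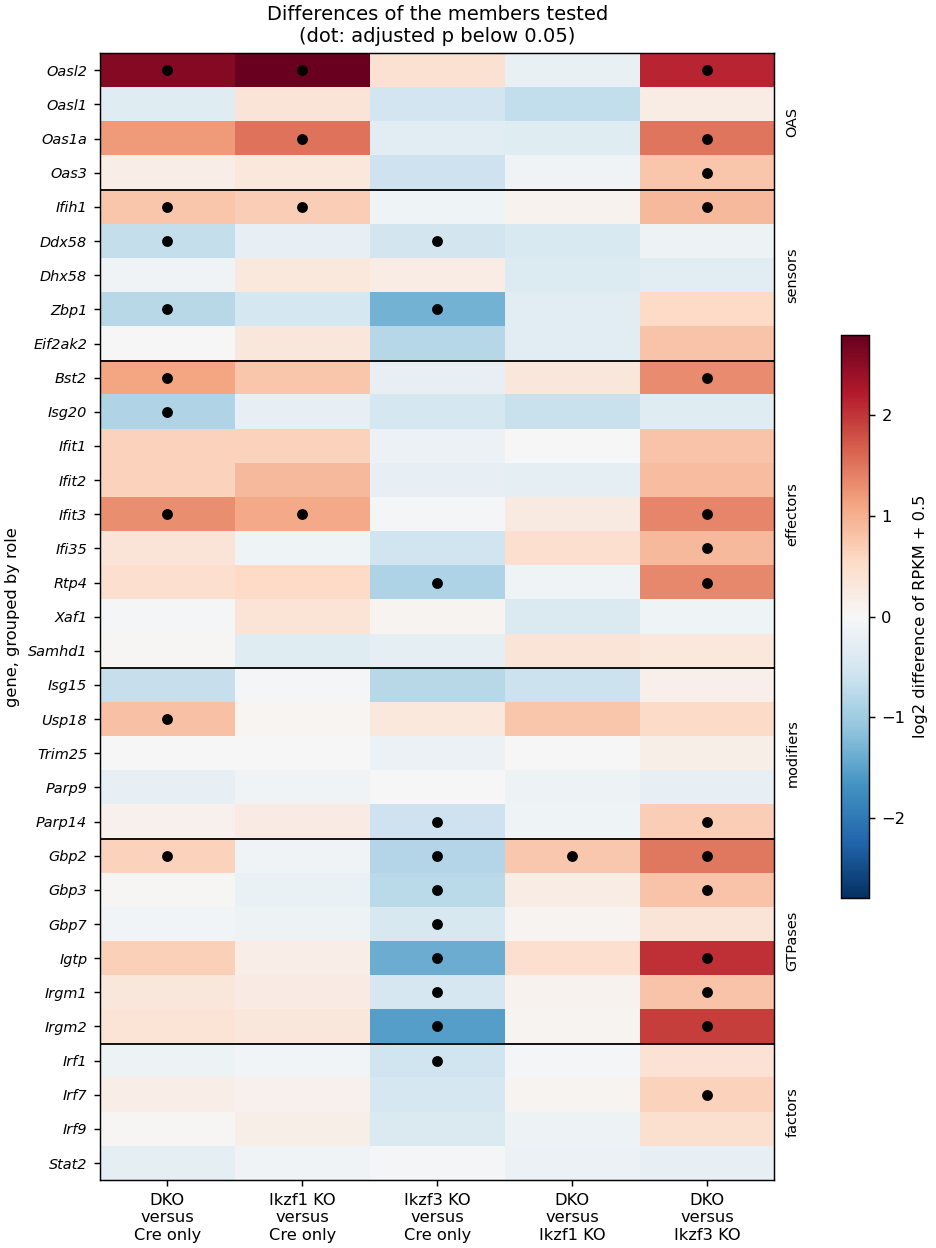
Log2 difference of RPKM + 0.5 (color) for the 33 genes tested (rows, grouped by role) in 5 comparisons (columns); a dot marks an adjusted p below 0.05 in limma. The Ikzf3 KO column holds 11 dots, all on lower values, and the column of DKO versus Ikzf3 KO holds 15, all on higher values.

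The interferon-inducible GTPases were low in Ikzf3 KO as a group. The immunity-related GTPases Igtp, Irgm1 and Irgm2 and the guanylate-binding proteins Gbp2, Gbp3 and Gbp7 coat or control the vacuoles in which intracellular pathogens live. All 6 were tested and all 6 fell in Ikzf3 KO relative to Cre only, where 7.88% of all genes tested fell. In Ikzf1 KO 0 of 6 were called, where 6.32% of all genes tested were called, and 1 of 6 rose in DKO, where 8.06% rose. Their mean level over the 6 genes, on the log2(RPKM + 0.5) scale, was 5.18 ± 0.31 in DKO, 4.90 ± 0.07 in Ikzf1 KO, 3.95 ± 0.18 in Ikzf3 KO and 4.85 ± 0.14 in Cre only libraries (SD over libraries).

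Irgm2 (ENSMUSG00000069874, chr11:58199618-58222782, plus strand in mm10) had 38.5, 45.9 and 43.3 RPKM in DKO, 39.7, 41.9, 39.5 and 39.5 RPKM in Ikzf1 KO, 14.4, 14.0, 6.95 and 9.22 RPKM in Ikzf3 KO and 38.7, 32.1, 27.1 and 32.2 RPKM in Cre only libraries. Every Ikzf3 KO library lay below every library of the other groups. Irgm2 fell in Ikzf3 KO relative to Cre only (-1.55 ± 0.19, limma adjusted p = 0.000249) and was higher in DKO relative to Ikzf3 KO (1.94 ± 0.21, limma adjusted p = 1.69e-05). The means were 11.1 RPKM in Ikzf3 KO and 32.5 RPKM in Cre only libraries, a ratio of 0.343.

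Igtp (ENSMUSG00000078853, chr11:58199556-58207591, plus strand) had 59.2, 116 and 85.4 RPKM in DKO, 52.3, 60.1, 60.04 and 69.1 RPKM in Ikzf1 KO, 26.9, 28.2, 12.8 and 16.02 RPKM in Ikzf3 KO and 57.2, 57.8, 43.4 and 53.7 RPKM in Cre only libraries. The Ikzf3 KO libraries again lay apart below all others, and the DKO libraries spread over a range that took in Ikzf1 KO values. Igtp fell in Ikzf3 KO relative to Cre only (-1.38 ± 0.25, limma adjusted p = 0.00291) and was higher in DKO relative to Ikzf3 KO (2.05 ± 0.27, limma adjusted p = 0.000104). Its difference between DKO and Cre only did not pass (0.66, limma adjusted p = 0.0986). Igtp and Irgm2 share 162 exon bases in the annotation on the same strand (of 2022 and 3690), and their RefSeq windows share a run of 61 identical bases. Reads from the shared part cannot be assigned to either gene with certainty, so these are not fully separate measurements.

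Gbp2 (ENSMUSG00000028270, chr3:142620602-142638008, plus strand) had 53.3, 83.7 and 69.9 RPKM in DKO, 36.9, 41.3, 43.0 and 39.4 RPKM in Ikzf1 KO, 18.8, 22.5, 26.8 and 29.8 RPKM in Ikzf3 KO and 50.8, 37.2, 40.7 and 45.1 RPKM in Cre only libraries. All DKO libraries lay above all others and all Ikzf3 KO libraries below all others, with Ikzf1 KO and Cre only libraries overlapping between them. Gbp2 fell in Ikzf3 KO relative to Cre only (-0.83 ± 0.16, limma adjusted p = 0.00591), and was higher in DKO relative to Ikzf3 KO (1.47 ± 0.18, limma adjusted p = 5.39e-05), to Ikzf1 KO (0.75 ± 0.18, limma adjusted p = 0.018) and to Cre only (0.65 ± 0.18, limma adjusted p = 0.0207). The call against Ikzf1 KO was lost without S6 (adjusted p = 0.109 in limma), S7 (0.0613) or S12 (0.06). That against Cre only was lost without S6 (0.124), S7 (0.0668), S17 (0.0616) or S18 (0.0554).

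Irgm1 had 19.1, 23.0 and 17.99 RPKM in DKO, 17.4, 21.6, 17.9 and 17.7 RPKM in Ikzf1 KO, 11.7, 12.8, 10.6 and 9.91 RPKM in Ikzf3 KO and 17.6, 16.1, 14.4 and 15.3 RPKM in Cre only libraries. The Ikzf3 KO libraries were again the lowest, with no overlap. Irgm1 fell in Ikzf3 KO relative to Cre only (-0.48 ± 0.12, limma adjusted p = 0.0186), a call lost without S16 (adjusted p = 0.059 in limma), and was higher in DKO relative to Ikzf3 KO (0.81 ± 0.13, limma adjusted p = 0.000614). Gbp7 had 23.5, 22.6, 20.6 and 17.7 RPKM in Ikzf3 KO, against 29.8, 27.4, 28.1 and 29.2 RPKM in Cre only libraries, without overlap, and fell in Ikzf3 KO (-0.44 ± 0.11, limma adjusted p = 0.0225). The Gbp7 call was lost without S4 (adjusted p = 0.055 in limma), S16 (0.0598) or S19 (0.05). Gbp3, which the naming rule did not select and which was added after its values were seen, averaged 17.2 ± 7.39 RPKM in DKO, 13.9 ± 1.43 RPKM in Ikzf1 KO, 9.03 ± 0.270 RPKM in Ikzf3 KO and 15.9 ± 3.06 RPKM in Cre only libraries, and fell in Ikzf3 KO (-0.77 ± 0.22, limma adjusted p = 0.0354). Gbp2, Gbp3 and Gbp7 are neighbours on chromosome 3 with related sequences, and counting may have split reads between such relatives.

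**Figure D3:**
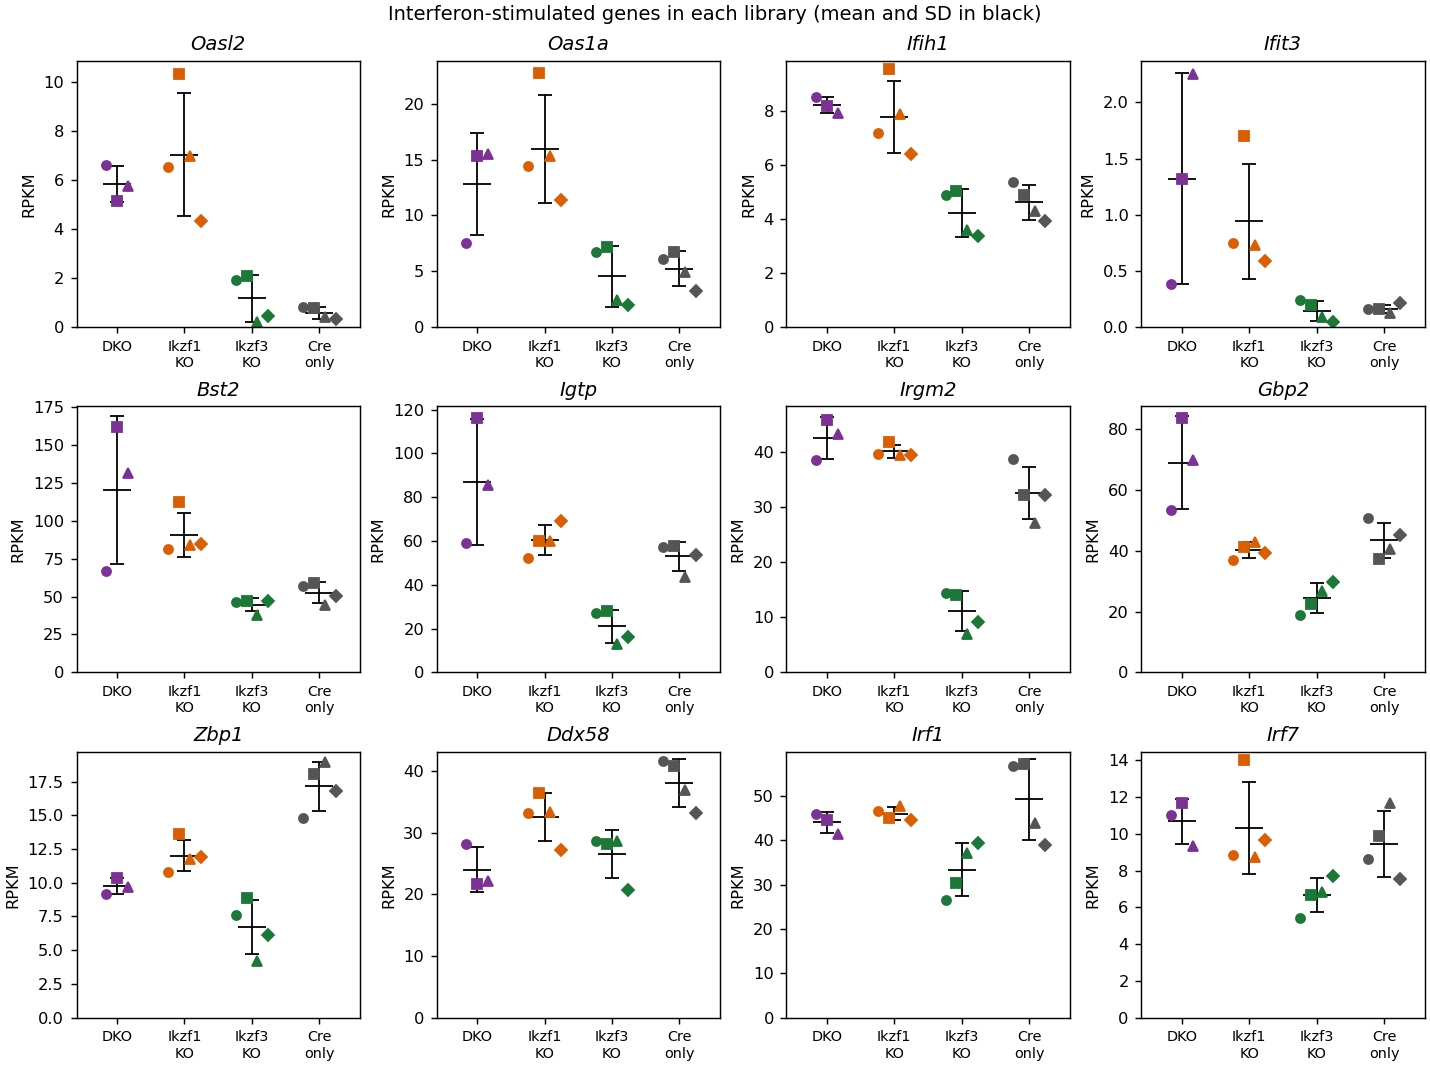
RPKM in each library (points; 1 marker shape per library of a group) with the group mean and SD (black) for 12 genes of the set, each panel with its own axis from 0. Ikzf3 KO libraries lie below all others in Igtp, Irgm2 and Gbp2, and DKO and Ikzf1 KO libraries lie above Cre only libraries in Oasl2 and Ifih1.

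Active enzymes of the OAS family make oligoadenylates in answer to double-stranded RNA, which switch on the nuclease RNase L. Of the 5 genes of this family in the set, 4 were tested. Relative to Cre only, 2 rose in Ikzf1 KO, 1 rose in DKO and 0 were called in Ikzf3 KO, and 3 were higher in DKO relative to Ikzf3 KO. Of all genes tested, 3.54% rose in Ikzf1 KO, 8.06% rose in DKO, 14.2% were called in Ikzf3 KO and 10.2% were higher in DKO relative to Ikzf3 KO. Oasl2, counted as a rise in both Ikzf1 KO and DKO, could be called only as higher relative to Cre only.

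Oasl2 (ENSMUSG00000029561, chr5:114896936-114912234, plus strand), an OAS-like protein, had 6.603, 5.14 and 5.75 RPKM in DKO, 6.51, 10.3, 6.99 and 4.31 RPKM in Ikzf1 KO, 1.91, 2.09, 0.212 and 0.452 RPKM in Ikzf3 KO and 0.803, 0.789, 0.408 and 0.345 RPKM in Cre only libraries. All DKO and Ikzf1 KO libraries lay above all Ikzf3 KO and Cre only libraries. Within Ikzf3 KO, S1 and S2 lay above all Cre only libraries, S4 among them and S3 below them. Oasl2 rose in Ikzf1 KO relative to Cre only (2.76 ± 0.37, limma adjusted p = 0.000508) and in DKO relative to Cre only (2.56 ± 0.40, limma adjusted p = 0.000513). These calls held in every alternative run but were open in 1 direction only. The mean RPKM of Ikzf1 KO was 12.0 times that of Cre only, and the mean of DKO was 9.95 times it. No Cre only library reached 1 RPKM, so the gene passed the filter through the other groups.

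Oas1a (ENSMUSG00000052776, chr5:120896256-120907521, minus strand), an oligoadenylate synthetase, had 7.51, 15.4 and 15.5 RPKM in DKO, 14.4, 22.8, 15.3 and 11.4 RPKM in Ikzf1 KO, 6.70, 7.13, 2.44 and 1.92 RPKM in Ikzf3 KO and 6.05, 6.71, 4.96 and 3.18 RPKM in Cre only libraries. Every Ikzf1 KO library exceeded every Ikzf3 KO and Cre only library, and the DKO library S5 lay just above their highest value. Oas1a rose in Ikzf1 KO relative to Cre only (1.52 ± 0.38, limma adjusted p = 0.0263). Its difference between DKO and Cre only just missed the threshold (1.19, limma adjusted p = 0.0566). The Ikzf1 KO call was lost without S12 (adjusted p = 0.0666 in limma), S13 (0.0966), S14 (0.0709), S18 (0.0698) or S19 (0.0633). Close relatives such as Oas1g could share reads with Oas1a.

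Oas3 averaged 6.07 ± 1.26 RPKM in DKO, 6.65 ± 1.81 RPKM in Ikzf1 KO, 3.48 ± 1.31 RPKM in Ikzf3 KO and 5.24 ± 0.624 RPKM in Cre only libraries, and Oasl1, which in mice restrains Irf7 translation, averaged 0.621 ± 0.215 RPKM in DKO, 1.42 ± 0.889 RPKM in Ikzf1 KO, 0.531 ± 0.452 RPKM in Ikzf3 KO and 0.942 ± 0.383 RPKM in Cre only libraries. Oas2 did not pass the filter. It was listed at 0 in all Ikzf3 KO and Cre only libraries and had 0.0302, 0.242 and 0.145 RPKM in DKO and 0.331, 1.19, 0.286 and 0.0699 RPKM in Ikzf1 KO libraries, so no fold is given.

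Of the 5 nucleic acid sensors, relative to Cre only, 1 rose and 2 fell in DKO, 1 rose in Ikzf1 KO and 2 fell in Ikzf3 KO. Shares of all genes tested were 8.06% and 10.6% in DKO, 3.54% in Ikzf1 KO and 7.88% in Ikzf3 KO. Ifih1 (MDA5), a sensor of long double-stranded RNA, had 8.52, 8.195 and 7.91 RPKM in DKO, 7.19, 9.53, 7.90 and 6.42 RPKM in Ikzf1 KO, 4.90, 5.05, 3.58 and 3.36 RPKM in Ikzf3 KO and 5.38, 4.89, 4.28 and 3.92 RPKM in Cre only libraries. The DKO and Ikzf1 KO libraries all lay above the Ikzf3 KO and Cre only libraries. Ifih1 (ENSMUSG00000026896, chr2:62595798-62646255, minus strand) rose in DKO relative to Cre only (0.77 ± 0.17, limma adjusted p = 0.00502) and in Ikzf1 KO relative to Cre only (0.69 ± 0.15, limma adjusted p = 0.0153). The Ikzf1 KO call was lost without S13 (adjusted p = 0.0629 in limma), S14 (0.0544) or S18 (0.0538), and the DKO call without both S18 and S19 (0.0552).

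Zbp1 (ENSMUSG00000027514, chr2:173206612-173218923, minus strand), a sensor of Z-form nucleic acids that can start cell death, had 9.17, 10.3 and 9.72 RPKM in DKO, 10.8, 13.6, 11.7 and 11.9 RPKM in Ikzf1 KO, 7.61, 8.87, 4.23 and 6.09 RPKM in Ikzf3 KO and 14.8, 18.1, 18.96 and 16.8 RPKM in Cre only libraries. Every library of every knockout group lay below every Cre only library. Zbp1 fell in Ikzf3 KO relative to Cre only (-1.33 ± 0.17, limma adjusted p = 0.000386) and in DKO relative to Cre only (-0.78 ± 0.19, limma adjusted p = 0.00998), a call lost without both S18 and S19 (adjusted p = 0.0664 in limma). In Ikzf1 KO the difference did not pass (-0.49, limma adjusted p = 0.114). DKO libraries lay above all Ikzf3 KO libraries, a difference that did not pass (0.55, limma adjusted p = 0.0518).

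Ddx58 (RIG-I), a sensor of viral RNA ends, had 28.3, 21.6 and 22.1 RPKM in DKO, 33.3, 36.4, 33.4 and 27.1 RPKM in Ikzf1 KO, 28.6, 28.1, 28.7 and 20.7 RPKM in Ikzf3 KO and 41.6, 40.8, 36.9 and 33.1 RPKM in Cre only libraries. DKO and Ikzf3 KO libraries all lay below Cre only libraries, and Ikzf1 KO libraries overlapped them. It fell in DKO relative to Cre only (-0.66 ± 0.15, limma adjusted p = 0.00834), a call lost without both S16 and S17 (adjusted p = 0.0879 in limma), and, as a gene named after its values were seen, in Ikzf3 KO relative to Cre only (-0.52 ± 0.14, limma adjusted p = 0.0268). Eif2ak2 (the kinase PKR) averaged 9.71 ± 0.255 RPKM in DKO, 12.2 ± 0.990 RPKM in Ikzf1 KO, 5.84 ± 2.74 RPKM in Ikzf3 KO and 9.82 ± 2.07 RPKM in Cre only libraries, and Dhx58 (LGP2) averaged 4.01 ± 0.617 RPKM in DKO, 5.45 ± 1.37 RPKM in Ikzf1 KO, 5.36 ± 2.47 RPKM in Ikzf3 KO and 4.29 ± 0.402 RPKM in Cre only libraries. Neither passed in any comparison.

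Of the 11 antiviral effectors in the table, 9 were tested. Of the 9, 2 rose and 1 fell in DKO, 1 rose in Ikzf1 KO and 1 fell in Ikzf3 KO relative to Cre only, against the same shares of all genes tested as for the sensors. Ifit3, counted as a rise in both DKO and Ikzf1 KO, could be called only as higher, so its calls add nothing to these counts. Bst2 (tetherin), which holds budding virus particles at the cell surface, had 66.6, 162 and 132 RPKM in DKO, 81.6, 112, 83.8 and 84.4 RPKM in Ikzf1 KO, 46.1, 47.4, 38.1 and 46.8 RPKM in Ikzf3 KO and 56.8, 59.1, 44.2 and 50.6 RPKM in Cre only libraries. All DKO and Ikzf1 KO libraries lay above all Ikzf3 KO and Cre only libraries, and S5 was the lowest of DKO by a wide gap. Bst2 rose in DKO relative to Cre only (1.10 ± 0.24, limma adjusted p = 0.00533) and was near the threshold in Ikzf1 KO (0.77, limma adjusted p = 0.0517). The DKO call was lost without both S18 and S19 (adjusted p = 0.052 in limma).

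Ifit3, an RNA-binding antiviral protein of the IFIT family, had 0.385, 1.32 and 2.26 RPKM in DKO, 0.747, 1.70, 0.729 and 0.586 RPKM in Ikzf1 KO, 0.241, 0.196, 0.0911 and 0.0472 RPKM in Ikzf3 KO and 0.159, 0.156, 0.128 and 0.210 RPKM in Cre only libraries. The DKO and Ikzf1 KO libraries were above the others, and the recovered reads behind these values ranged from 1 to 61 per library. Ifit3 passed the filter only through 2 DKO libraries and 1 Ikzf1 KO library, so its calls were open in 1 direction only. It rose in DKO relative to Cre only (1.31 ± 0.32, limma adjusted p = 0.0105) and in Ikzf1 KO relative to Cre only (1.06 ± 0.29, limma adjusted p = 0.0462). The DKO call was lost without S6 (adjusted p = 0.0524 in limma) or S7 (0.06), and the Ikzf1 KO call was lost without any of S1, S2, S3, S6, S12, S13, S14, S16, S17, S18 or S19 (0.0511 to 0.152).

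Isg20, an exonuclease that degrades viral RNA, went the other way. It had 11.1, 8.18 and 10.3 RPKM in DKO, against 19.7, 22.7, 18.5 and 12.4 RPKM in Cre only libraries, with no overlap, and fell in DKO relative to Cre only (-0.84 ± 0.22, limma adjusted p = 0.0181). This call was lost without S6 (adjusted p = 0.0982 in limma) or S17 (0.0558). Rtp4, named after its values were seen, averaged 11.6 ± 2.82 RPKM in DKO, 12.7 ± 4.38 RPKM in Ikzf1 KO, 4.45 ± 1.59 RPKM in Ikzf3 KO and 8.08 ± 0.602 RPKM in Cre only libraries. It fell in Ikzf3 KO relative to Cre only (-0.87 ± 0.26, limma adjusted p = 0.042) and was higher in DKO relative to Ikzf3 KO (1.34 ± 0.28, limma adjusted p = 0.00434). Its gene body overlaps that of Masp1 on the other strand, and whether the counting used strand is not given in the sources used here.

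Ifit2 averaged 5.62 ± 2.96 RPKM in DKO, 6.25 ± 1.25 RPKM in Ikzf1 KO, 2.55 ± 0.614 RPKM in Ikzf3 KO and 3.13 ± 0.924 RPKM in Cre only libraries, Ifit1 averaged 1.61 ± 0.895 RPKM in DKO, 1.68 ± 1.33 RPKM in Ikzf1 KO, 0.635 ± 0.218 RPKM in Ikzf3 KO and 0.771 ± 0.275 RPKM in Cre only libraries, and neither passed in any comparison. Samhd1, which breaks down the building blocks of DNA, averaged between 15.5 and 19.9 RPKM in the 4 groups, and Xaf1 between 3.28 and 4.57 RPKM, with 0 calls for either. Ifi44 and Rsad2 (viperin) did not pass the filter. Their highest values were 1.74 and 1.07 RPKM, both in the Ikzf1 KO library S13.

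Of the 5 modifiers tested, 1 fell in Ikzf3 KO, 1 rose in DKO and 0 were called in Ikzf1 KO relative to Cre only. Relative to Ikzf3 KO, 1 was higher in DKO. Shares of all genes tested were 7.88% lower in Ikzf3 KO, 8.06% higher in DKO and 6.32% called in Ikzf1 KO. In DKO relative to Ikzf3 KO, 10.2% were higher. Isg15, the ubiquitin-like protein that gives this class its name, had 5.95, 17.97 and 20.2 RPKM in DKO, 18.4, 28.6, 18.3 and 16.8 RPKM in Ikzf1 KO, 12.8, 12.953, 8.51 and 13.7 RPKM in Ikzf3 KO and 24.0, 24.8, 20.2 and 15.05 RPKM in Cre only libraries. The DKO library S5 was the lowest of all 15, and the Ikzf3 KO libraries lay below all Ikzf1 KO and Cre only libraries. Isg15 passed in no comparison, with -0.65, limma adjusted p = 0.207 in DKO and -0.78, limma adjusted p = 0.102 in Ikzf3 KO relative to Cre only. Parp14, an ADP-ribosyltransferase, had 10.9, 9.09, 9.27 and 6.66 RPKM in Ikzf3 KO, against 12.4, 12.7, 13.9 and 14.8 RPKM in Cre only libraries, without overlap, and fell in Ikzf3 KO (-0.57 ± 0.14, limma adjusted p = 0.0151). This call was lost when the 2 groups were fitted alone (adjusted p = 0.0906 in limma) and without both S18 and S19 (0.124). Usp18, which removes ISG15 and dampens type I interferon signalling, averaged 2.00 ± 0.166 RPKM in DKO, 1.06 ± 0.718 RPKM in Ikzf1 KO, 1.24 ± 0.324 RPKM in Ikzf3 KO and 0.912 ± 0.0976 RPKM in Cre only libraries. It rose in DKO relative to Cre only (0.83 ± 0.25, limma adjusted p = 0.0331) and was named after its values were seen. Trim25 and Parp9 had 0 calls, and the body of Parp9 overlaps that of Dtx3l on the other strand.

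The 4 transcription factors of the set were described whatever they did. Irf1 had 46.0, 44.7 and 41.5 RPKM in DKO, 46.6, 45.0, 47.8 and 44.7 RPKM in Ikzf1 KO, 26.6, 30.5, 37.2 and 39.3 RPKM in Ikzf3 KO and 56.8, 57.1, 44.0 and 39.0 RPKM in Cre only libraries. The Ikzf3 KO library S4 lay above the Cre only library S19, and otherwise Ikzf3 KO was lower. Irf1 fell in Ikzf3 KO relative to Cre only (-0.55 ± 0.15, limma adjusted p = 0.0244), a call lost without S16 (adjusted p = 0.0735 in limma) or S17 (0.0754).

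Irf7, which amplifies the type I response, had 11.02, 11.7 and 9.34 RPKM in DKO, 8.84, 14.0, 8.75 and 9.68 RPKM in Ikzf1 KO, 5.44, 6.69, 6.84 and 7.70 RPKM in Ikzf3 KO and 8.65, 9.90, 11.7 and 7.57 RPKM in Cre only libraries. Ikzf3 KO libraries lay below all DKO and Ikzf1 KO libraries and overlapped Cre only at S4 and S19. Irf7 was higher in DKO relative to Ikzf3 KO (0.65 ± 0.18, limma adjusted p = 0.0235), a call lost without S5 (adjusted p = 0.0628 in limma) or S6 (0.094). Relative to Cre only, Irf7 did not pass in Ikzf3 KO (-0.47, limma adjusted p = 0.0767).

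Irf9, the DNA-binding partner of STAT2, had 9.24, 12.2 and 10.3 RPKM in DKO, 10.6, 14.96, 10.8 and 10.46 RPKM in Ikzf1 KO, 6.78, 6.96, 8.14 and 8.74 RPKM in Ikzf3 KO and 9.81, 8.97, 12.0 and 10.49 RPKM in Cre only libraries. Ikzf3 KO libraries lay below those of every other group, but the difference from Cre only did not pass (-0.41, limma adjusted p = 0.0701). Stat2 had 6.09, 3.22 and 5.03 RPKM in DKO, 5.19, 5.54, 4.66 and 5.64 RPKM in Ikzf1 KO, 4.67, 4.05, 7.96 and 6.12 RPKM in Ikzf3 KO and 4.22, 4.59, 7.97 and 6.47 RPKM in Cre only libraries. Its groups overlapped in every comparison and it had 0 calls. The body of Irf9 overlaps that of Rnf31 on the same strand.

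A further test asked whether the DKO difference equalled the sum of the single deletions, as (DKO minus Ikzf1 KO) minus (Ikzf3 KO minus Cre only). The 6 GTPases fell in Ikzf3 KO relative to Cre only, where 7.88% of all genes tested fell. In DKO relative to Ikzf1 KO, 0 of the 6 were called lower, near the 3.72% of all genes tested. The departure was positive and passed for 5 of the 33 genes and negative for 0, where 6.55% of all genes tested were called (3.63% positive and 2.92% negative). The median departure was 0.46, against 0.00 for all genes tested. It was 1.58 ± 0.24, limma adjusted p = 0.00174 for Gbp2, 1.63 ± 0.28, limma adjusted p = 0.00395 for Irgm2 and 1.86 ± 0.36, limma adjusted p = 0.00754 for Igtp, and these calls held in every alternative run. Zbp1 (1.05 ± 0.26, limma adjusted p = 0.026) and, named after its values were seen, Ifi35 (1.02 ± 0.28, limma adjusted p = 0.0449) also passed. The count of positive departures was 3 without S6, S7, S12, S14 or S18, runs whose share over all genes tested is not given here. The Zbp1 call was lost without S6 (adjusted p = 0.0655 in limma), S7 (0.0517), S12 (0.0612), S14 (0.0581) or S18 (0.0511). Oasl2, by contrast, gave -0.63 ± 0.55, limma adjusted p = 0.537 and Ifih1 0.22 ± 0.23, limma adjusted p = 0.61, neither past the threshold.

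**Figure D4:**
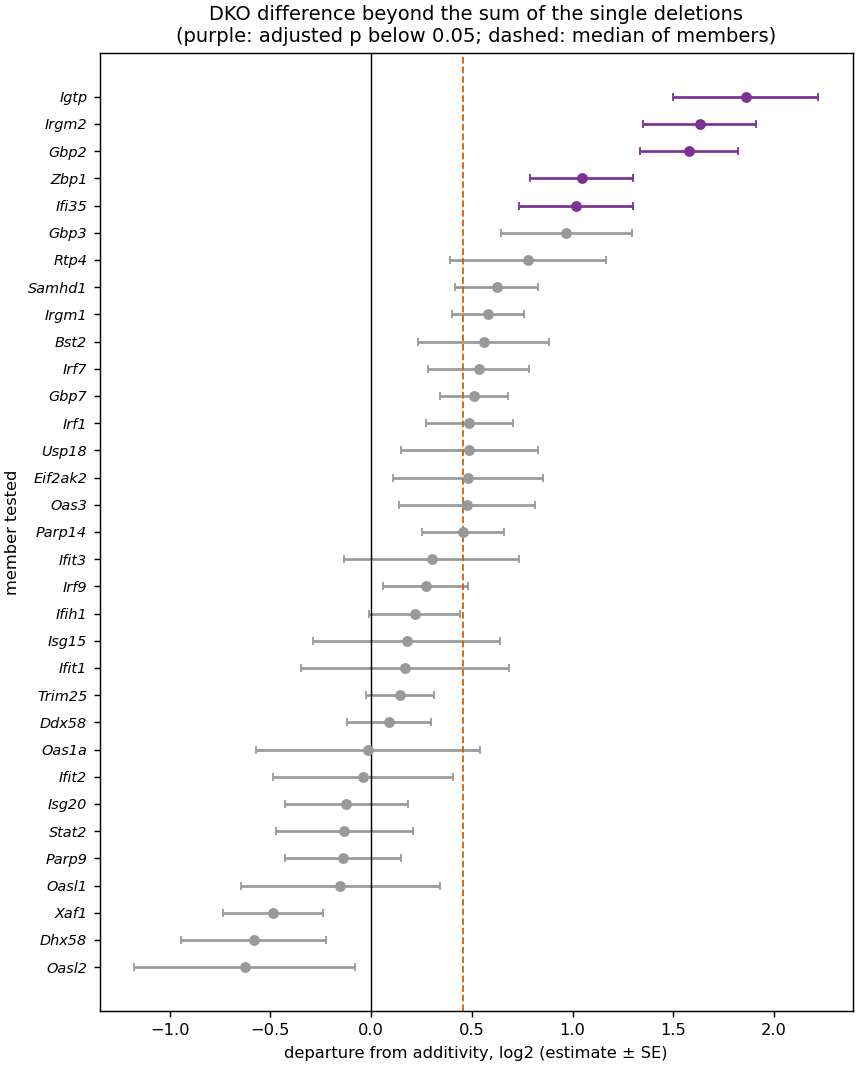
Departure of DKO from the sum of the single deletions (log2, estimate ± SE) for the 33 genes tested, sorted by size; purple marks an adjusted p below 0.05 in limma and the dashed line the median of the 33. The 5 purple genes lie between 1.02 and 1.86, and 3 of them are GTPases.

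Other genes of the pathway were counted from lists of ligands, receptors, kinases and further inducible genes. Of 43 further interferon-inducible genes in the table, 42 were tested. In Ikzf3 KO relative to Cre only, 2 rose and 15 fell, in Ikzf1 KO 1 rose and 2 fell, and in DKO 5 rose and 4 fell. Of all genes tested, 6.3% rose and 7.88% fell in Ikzf3 KO, 3.54% rose and 2.78% fell in Ikzf1 KO, and 8.06% rose and 10.6% fell in DKO, so the 42 genes lay near those shares in Ikzf1 KO and DKO. In DKO relative to Ikzf3 KO, 17 were higher and 4 lower, against 10.2% and 9.85% of all genes tested. Their median log2 fold change was -0.44 in Ikzf3 KO relative to Cre only.

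Uba7, the activating enzyme for ISG15, had 4.64, 5.22, 4.17 and 3.56 RPKM in Ikzf3 KO, against 10.46, 10.4, 9.29 and 8.88 RPKM in Cre only libraries. It fell in Ikzf3 KO (-1.08 ± 0.14, limma adjusted p = 0.000386), as did Nlrc5, a regulator of MHC class I genes (-1.60 ± 0.21, limma adjusted p = 0.000416), and Tmem173 (STING), the adaptor of cytosolic DNA sensing (-1.003 ± 0.16, limma adjusted p = 0.00138). Ifi204, a DNA-binding protein of the p200 family, went the other way. It had 2.13, 3.38 and 3.32 RPKM in DKO, 3.75, 7.72, 4.50 and 1.36 RPKM in Ikzf1 KO, 8.44, 7.93, 8.17 and 8.77 RPKM in Ikzf3 KO and 1.71, 1.97, 1.04 and 0.550 RPKM in Cre only libraries, and rose in Ikzf3 KO relative to Cre only (2.36 ± 0.36, limma adjusted p = 0.00116). Ikzf3 KO was its highest group without overlap.

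Iigp1 and Tgtp2 encode GTPases related to Igtp. Iigp1 had 4.73, 22.9 and 16.9 RPKM in DKO, 5.92, 10.2, 8.44 and 5.27 RPKM in Ikzf1 KO, 0.998, 0.985, 0.0764 and 0.132 RPKM in Ikzf3 KO and 4.14, 2.70, 0.833 and 1.45 RPKM in Cre only libraries, and was higher in DKO relative to Ikzf3 KO (3.76 ± 0.53, limma adjusted p = 0.000219). No Ikzf3 KO library of Iigp1 reached 1 RPKM, so it passed the filter through the other groups, which limits this call as for Ifit3. Tgtp2, whose near-identical copy Tgtp1 may share its reads, was also higher in DKO relative to Ikzf3 KO (1.68 ± 0.26, limma adjusted p = 0.000511). Gbp9, unlike Gbp2, Gbp3 and Gbp7 of the set, fell in DKO relative to both Cre only (-1.44 ± 0.20, limma adjusted p = 0.000142) and Ikzf1 KO (-1.21 ± 0.20, limma adjusted p = 0.00138). Tlr7, an endosomal RNA receptor, averaged 0.444 ± 0.247 RPKM in DKO, 2.13 ± 0.280 RPKM in Ikzf1 KO, 0.0716 ± 0.0932 RPKM in Ikzf3 KO and 0.418 ± 0.0943 RPKM in Cre only libraries. It passed the filter through the 4 Ikzf1 KO libraries alone, so no test is given.

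Single libraries stood apart within their groups over many genes of the set. In Ikzf1 KO, S13 was the highest of 4 libraries in 24 of the 33 genes (72.7%; 24.1% of all genes tested). In DKO, S5 was the lowest of 3 libraries in 21 of the 33 (63.6%; 43.2% of all genes tested), and its T cell markers summed to 197 RPKM, against 458 in S6 and 387 in S7. In Ikzf3 KO, S3 and S4 both lay below S1 and S2 in 17 of the 33 (51.5%; 36.6% of all genes tested). Over the 33 genes the mean log2 level was 3.596 ± 0.22 in DKO, 3.64 ± 0.21 in Ikzf1 KO, 2.90 ± 0.17 in Ikzf3 KO and 3.342 ± 0.04 in Cre only libraries (SD over libraries). Without S5 and S13, an alternative added after the data were seen, 13 genes were called in Ikzf3 KO, 3 in Ikzf1 KO and 13 in DKO relative to Cre only, 4 in DKO relative to Ikzf1 KO and 18 in DKO relative to Ikzf3 KO. The share of all genes tested that was called in this run is not given here, so these counts show no trait of the set. Bst2, Ifit3 and Gbp2, which rose in DKO relative to Cre only, were lowest in S5 among DKO libraries, as were the T cell markers. Oasl2 and Ifih1, which also rose, were highest in S5, and Usp18 was not lowest there. The part of the T cell markers in the result was not tested.

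**Figure D5:**
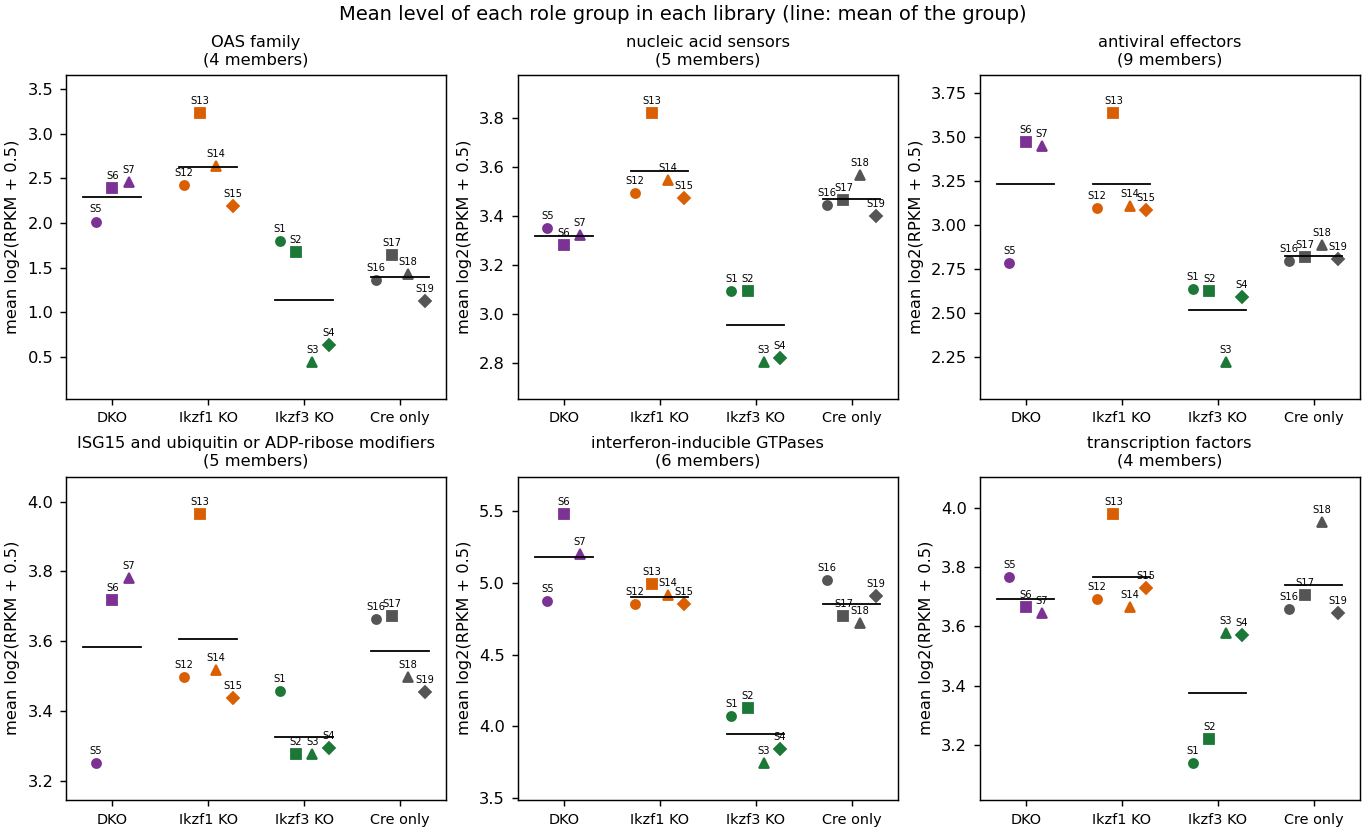
Mean of log2(RPKM + 0.5) over the tested genes of each role in each library (points, labelled by library), with the mean of the group (line); axes do not start at 0. In the GTPase panel all 4 Ikzf3 KO libraries lie between 3.75 and 4.12, and S13 is the highest Ikzf1 KO library in all 6 panels.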

How the data were processed

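RNA of cultured NK cells was sequenced as 75 bp single-end reads from a directional kit, per the labels' protocols, with about 20 megareads intended. Per the submitters' processing notes, STAR, featureCounts, the build mm10 and limma 3.34.9 were used, with no settings given. The authors deposited 1 table of RPKM values, which divide reads by gene length and by library size, with no counts. All 15 value columns were used. The culture is not in their names, only the genotype. Each was taken as cultured because the labels list Ikzf3 KO and DKO as cultured only and the other group sizes match only the cultured groups. The 6 directly sorted samples were not analysed here.

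Reads per gene were recovered from the steps between values, with GENCODE mouse release 21 lengths. In all libraries 96.2% of the 11736 genes came out as whole reads within 0.02 read. Recovered reads ran from 1 to 61 for Ifit3 and from 17 to 799 for Oasl2. How far counting error bears on the calls was not tested.

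Genes with RPKM of at least 1 in at least 3 libraries were fitted with limma 3.58.1 under R 4.3.3, as log2(RPKM + 0.5) with a mean for each group, a trend of variance on level and robust moderation. Tests were 2-sided, with Benjamini-Hochberg adjustment over all genes tested. The script was checked on simulated data. Named genes were the 4 transcription factors, up to 8 called genes with the smallest adjusted p in each comparison with Cre only, and up to 4 in each other test, and likewise up to 4 of the pathway lists. The members and lists were chosen with earlier results of these data known. Alternatives changed the pseudocount, filter, scaling, weights, groups fitted and libraries. Motifs were searched in RefSeq windows. Python 3.11.15, numpy 2.4.6, pandas 2.3.3 and matplotlib 3.10.9 were used.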

Additional observations from a re-analysis of the deposited data

Results flagged for a closer look

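Within groups of 4 libraries, single values far from the other 3 were sought by Dixon's criterion. It marked 16 of 163 groups of values, where chance marks about 1 in 20, and the groups are not independent since genes of the set move together in a library. In Ikzf1 KO, S13 was the high value for Dhx58 (7.49 RPKM), Bst2 (112 RPKM), Ifit1 (3.67 RPKM), Ifit3 (1.70 RPKM), Rsad2 (1.07 RPKM), Isg15 (28.6 RPKM), Usp18 (2.13 RPKM), Irgm1 (21.6 RPKM), Irgm2 (41.9 RPKM) and Irf9 (14.96 RPKM). Also in Ikzf1 KO, S15 was the high value for Uba7 (13.3 RPKM), Nlrc5 (10.8 RPKM) and Cish (35.5 RPKM). In Ikzf3 KO, S4 was low for Ddx58 (20.7 RPKM) and S3 low for Bst2 (38.1 RPKM). In Cre only, S18 was high for Rsad2 (0.514 RPKM).

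The effect of the Ikzf3 deletion differed with and without Ikzf1 deletion by the test of additivity in limma, at a Benjamini-Hochberg adjusted p below 0.05, for 14 of the genes named. Genes were named partly because they were called, and 6.55% of all genes tested were called. In the set, the log2 departure was 1.05 for Zbp1, 1.02 for Ifi35, 1.58 for Gbp2, 1.86 for Igtp and 1.63 for Irgm2. Among pathway genes it was 1.35 for Tmem173, 1.45 for Tgtp2, 0.91 for Trim21, 2.67 for Ms4a4b, 2.60 for Ms4a4c, 1.10 for Uba7, 1.23 for Nlrc5 and 1.00 for Ptpn6. Ifi204 had a departure of -2.68. Of the 42 further interferon-inducible genes tested, named or not, 10 had a positive and 2 a negative departure past the threshold. Of all genes tested, 3.63% had a positive and 2.92% a negative one.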

How the results depend on the processing

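Genes of the set called were recounted under 27 alternatives, or 26 for the test of additivity, which cannot be run on only the 2 groups compared. Among genes of the set named by the rule, no called difference changed direction. The direction of the other called genes was not followed under the alternatives. Leaving out each library in turn gave 5 to 14 calls in Ikzf3 KO, 1 to 6 in Ikzf1 KO and 5 to 11 in DKO relative to Cre only, 0 to 2 in DKO relative to Ikzf1 KO, 11 to 18 in DKO relative to Ikzf3 KO, and 3 to 7 departures. The lowest counts came without S16 (Ikzf3 KO, 5), without S13, S14 or S18 (Ikzf1 KO, 1), without S6 (DKO relative to Cre only, 5), without S6, S7 or S12 (DKO relative to Ikzf1 KO, 0), and without S6, S7, S12, S14 or S18 (departures, 3). Without S12 or S19 the Ikzf1 KO count was 2, and without S4, S5 or S13 that of DKO relative to Ikzf1 KO was 2. With array weights, counts were 13 in Ikzf1 KO relative to Cre only, 6 in DKO relative to Ikzf1 KO and 10 departures. With only the 2 groups compared they were 8 in Ikzf1 KO, 5 in Ikzf3 KO, 4 in DKO relative to Ikzf1 KO and 8 in DKO relative to Ikzf3 KO. Without S3 and S4 they were 7 in Ikzf1 KO, 14 in DKO relative to Cre only, 6 in DKO relative to Ikzf1 KO and 8 departures. Without S16 and S17 they were 2 in Ikzf1 KO, 5 in Ikzf3 KO, 4 in DKO relative to Cre only and 3 departures. Without S18 and S19 they were 1, 7, 3 and 3 in the same order. Without S5 and S13, DKO relative to Ikzf1 KO had 4. Leaving libraries out changes the number of samples, and other causes were not tested. Each setting can also move the share of all genes tested that is called. That share is not given here, so these counts show no trait of the set. Pseudocounts, filters, quantile normalization and median-ratio rescaling kept every count within 1.5 times. Among calls not given above as lost to these settings, fitting the 2 groups alone ended those of Gbp7 (limma adjusted p = 0.102), Irgm1 (0.0849) and Irf1 (0.137) in Ikzf3 KO relative to Cre only and of Irf7 in DKO relative to Ikzf3 KO (0.0774). A pseudocount of 1 (0.0692) and quantile normalization (0.0523) ended that of Ifit3 in Ikzf1 KO. For single named genes, 1279 values kept their direction and side of the threshold, 77 lost a call, 14 gained one and 24, of Irf1, Irf7, Irf9 and Stat2 below the threshold, changed sign. No paired analysis was possible because the columns carry no replicate numbers of the labels.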

Other observations

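Interferon ligands and receptors were sparse in the table. Of 10 ligands, Ifng alone has a row. It had 2.59, 15.7 and 12.5 RPKM in DKO, 12.2, 12.9, 15.99 and 8.44 RPKM in Ikzf1 KO, 19.8, 22.2, 15.3 and 12.0 RPKM in Ikzf3 KO and 52.7, 68.2, 20.5 and 15.6 RPKM in Cre only libraries. The Cre only libraries split into a higher and a lower pair, and S5 was the lowest of all. Ifng fell in DKO relative to Cre only (-1.94 ± 0.55, limma adjusted p = 0.0246), with the libraries of the groups overlapping. Of 6 receptor genes, Ifnar2 and Il10rb have a row, and Il10rb, a chain shared by the receptors for interleukin 10 and interferon lambda, fell in DKO relative to Cre only (-0.64 ± 0.15, limma adjusted p = 0.00801).

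Of 6 negative regulators tested, 2 rose in DKO and 1 fell in Ikzf3 KO relative to Cre only. Of 7 kinases and STATs tested, 3 fell in DKO and 1 fell in Ikzf3 KO. Of all genes tested, 8.06% rose and 10.6% fell in DKO and 7.88% fell in Ikzf3 KO. Socs3 and Ptpn6, which restrain cytokine signalling, rose in DKO relative to Cre only, and Cish fell in Ikzf3 KO relative to Cre only (log2 fold changes of 0.88, 0.76 and -2.51, limma adjusted p = 0.0119, 0.00993 and 0.0097). Stat4 and Stat3, which carry signals of interleukin 12 and of cytokines of the interleukin 6 type, fell in DKO relative to Cre only, with 14.8 ± 0.867 RPKM in DKO and 34.8 ± 6.08 RPKM in Cre only libraries for Stat4. Stat3 averaged 16.8 ± 4.10 RPKM in DKO and 38.6 ± 5.77 RPKM in Cre only libraries (SD, n = 3 and 4). Genes of these lists were named after their values were seen, except Stat3 and Stat4.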
